A study of Rattus norvegicus with 8 samples.

Results

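The response of neuronal processes to chronic network activation was measured by RNA-seq in 4 of the 8 samples of this series, 2 control samples and 2 samples treated with picrotoxin (PTX). All of them came from primary hippocampal neurons of Sprague-Dawley rats grown on culture inserts, filters whose pores let axons and dendrites pass to the lower side while the cell bodies stay above. PTX was added to the medium for 48 h, from day 18 to day 20 in vitro, and control cultures received vehicle. The process samples are total RNA, depleted of rRNA, from below the filter, which the labels also call dendrites but which holds axons and other cells' RNA too, and the 4 samples from above it, 2 control and 2 PTX, are used here only to estimate the spread between samples and to set the response in processes beside that in somata. The samples were chosen by their labels, and the labels do not say whether replicates 1 and 2 were separate cultures, so p-values describe the spread between these samples, which may be partly technical.

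PTX blocks the chloride channel of GABA-A receptors and thereby removes fast inhibition, and cultures respond over days with synaptic downscaling, a reduction of the strength of their excitatory synapses. Many mRNAs are carried along the cytoskeleton into dendrites and axons, where they can be translated near synapses, so the RNA of processes can change through transcription in the nucleus, through transport and through decay on site. An RNA-seq sample of processes reports the sum of these steps.

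The compartment is a mixture. Processes held RNA of the dendritic kinase Camk2a and of the microtubule protein Map2. The values of Map2 were 4693 and 4524 CPM in control and 3935 and 3369 CPM in PTX. Of the 15 listed nuclear-retained RNAs, 6 were tested (Snhg11 and 5 families of spliceosomal RNA). They summed to 76.4 to 133 CPM, against 1407 to 1771 CPM in somata. The low sum rests on these 6 alone. CPM are counts per 1000000 after scaling by the trimmed mean of M values (TMM), and they compare 1 gene between samples but not different genes. RNA of astrocytes was also present. The 14 tested markers of this cell type summed to 17170 and 15920 CPM in control and 13170 and 15020 CPM in PTX, against 4023 to 5770 CPM in somata. In contrast, 12 of the 13 microglia markers in the table had at most 5 reads in any process sample, and Cx3cr1, C1qa, Ptprc and Trem2 had 0. In such bulk samples, fewer cells of a type and less RNA per cell cannot be told apart.

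Process samples held between 15120334 and 18455662 counts, of which the mitochondrial rRNAs took 64.89 to 68.31%, so that 4703151 to 5492640 counts per sample fell outside the mitochondrial genome. A median tested gene had 96 to 110 reads per sample. The share of genes that passed the test rose with depth, from 2.92% of genes with a mean under 20 reads to 21.4% in the class of genes with the most reads, and the median standard error of the log2 fold change fell from 0.503 to 0.0971 between these classes. A small change of a weakly expressed gene was therefore often not detectable at this depth.

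PTX raised the RNA of 730 genes and lowered that of 871 genes in processes (edgeR quasi-likelihood test over all 8 samples with the replicate number as a block, Benjamini-Hochberg adjusted p under 0.05). These are 11.2% of the 14309 genes tested, 5.1% raised and 6.09% lowered. The median log2 fold change was 0.66 among the raised and -0.64 among the lowered genes, beside -0.01 over all tested genes, and 170 genes rose and 172 fell more than 2-fold. The control and the PTX samples did not overlap for 703 of the raised and 830 of the lowered genes, and the same held for 42.4% of all tested genes. Without the replicate block, 535 genes passed (235 raised and 300 lowered, 3.74% of those tested), all of them among the 1601. The lowered genes were uneven between the control samples, since 684 of 871 (78.5%) were higher in control replicate 1 than in control replicate 2, against 51.7% of all tested genes. Without control replicate 1, 370 genes were raised and 362 lowered, and the total was 669 genes without PTX replicate 1 and 896 without PTX replicate 2. Scaling by library size alone gave 759 raised and 607 lowered genes. Of the members of the gene lists described next, 313 passed, against 131 without the block and, with the block, 177 without control replicate 1, 274 without control replicate 2, 165 without PTX replicate 1 and 201 without PTX replicate 2. Of 354 named genes, 152 lost their call without control replicate 1, 66 without control replicate 2, 162 without PTX replicate 1 and 128 without PTX replicate 2.

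**Figure D1:**
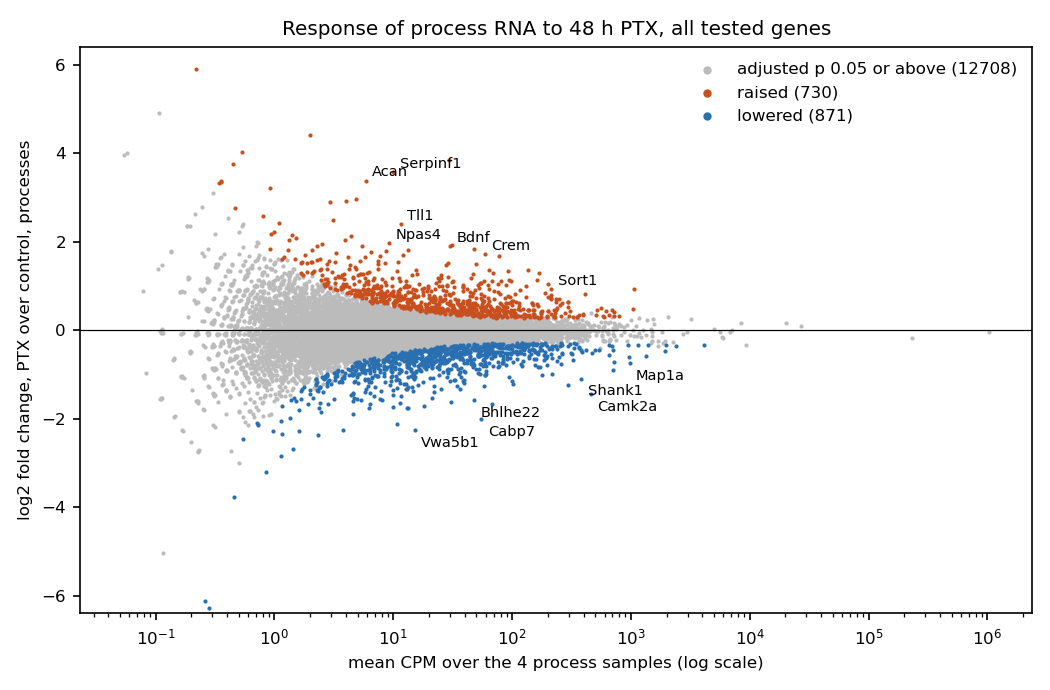
Log2 fold change of PTX over control in processes (vertical axis) against the mean CPM of the 4 process samples (horizontal log axis) for the 14309 tested genes. The 730 raised genes (orange) and 871 lowered genes (blue) spread over the whole range of levels, and the smallest change that passed narrows toward higher CPM, down to a log2 value of 0.279.

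The steepest rise with at least 5 CPM belonged to the long intergenic RNA AABR07052897.3, which had 4.91 and 2.7 CPM in control and 68.6 and 42.4 CPM in PTX, a log2 fold change of 3.85 ± 0.17 (adjusted p = 3.61e-13). Serpinf1, which encodes the secreted anti-angiogenic factor PEDF, followed with 1.78 and 1.29 CPM in control and 22 and 14.9 CPM in PTX (3.57 ± 0.35 log2). Acan encodes aggrecan, the main proteoglycan of perineuronal nets, and rose from 1.34 and 0.705 CPM in control to 11.8 and 9.65 CPM in PTX (3.38 ± 0.29 log2). In all 3 cases the lower PTX sample was several times above the higher control sample. Values with ± here are log2 fold changes of PTX over control with their standard error, from 2 samples per group.

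The protease Tll1 had 3.35 and 3.99 CPM in control and 21.5 and 17.2 CPM in PTX (log2 2.39 ± 0.18), and the neurotrophin gene Bdnf had 12.8 and 12.6 CPM in control and 49.7 and 44.7 CPM in PTX (log2 1.90 ± 0.15). Lgi2, a secreted relative of the epilepsy gene Lgi1, was at 23.1 and 18.6 CPM in control and 90.1 and 60.3 CPM in PTX (log2 1.84 ± 0.11). Both PTX samples exceeded both control samples for each of these genes. Among regulators of transcription, Npas4 reached 11.4 and 18.1 CPM in PTX from 3.23 and 4.35 CPM in control (log2 1.96 ± 0.20), and Crem, a member of the CREB family, 79 and 103 from 22.6 and 33.1 CPM (log2 1.71 ± 0.13). For both genes replicate 2 was the higher one in either condition. The granin genes Vgf (log2 1.81 ± 0.20) and Scg2 (log2 1.68 ± 0.12), the early response gene Apold1 (1.80 ± 0.25), the small Maf factor Maff (1.76 ± 0.24), the vesicle GTPase Rab27b (1.70 ± 0.21), the mitotic kinase Pbk (1.91 ± 0.26) and the unnamed protein-coding gene AABR07051069.1 (1.92 ± 0.13) completed the 15.

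Among the falls, Vwa5b1 led with 31.2 and 19.1 CPM in control and 5.86 and 4.52 CPM in PTX, a log2 fold change of -2.26 ± 0.17 (adjusted p = 6.23e-09). Otof, the calcium sensor of vesicle fusion known from inner hair cells, had 21.7 and 13 CPM in control and 4.36 and 3.62 CPM in PTX (log2 -2.11 ± 0.21), and Cabp7, a calcium-binding protein related to calmodulin, 109 and 66.9 CPM in control and 29.7 and 14.7 CPM in PTX (log2 -2.00 ± 0.15). Each of the 3 genes was higher in control replicate 1 than in control replicate 2, and both PTX samples lay below both controls. Signalling genes followed, with the Ras GTPase-activating protein Rasal1 (-1.77 ± 0.20), the histamine H3 receptor Hrh3 (-1.76 ± 0.26), the phospholipase C Plch2 (-1.72 ± 0.16) and the copine Cpne6 (-1.68 ± 0.22). Jph4, a junctophilin that ties the plasma membrane to internal calcium stores, went from 130.1 and 77.5 CPM to 35.1 and 29.5 CPM (log2 -1.66 ± 0.13). The neuronal transcription factor Bhlhe22 had 79.5 and 65.4 CPM in control and 21.8 and 26.2 CPM in PTX (log2 -1.58 ± 0.12). The AMPA receptor partner Shisa6 (-1.57 ± 0.25), the thyroid hormone binding protein Crym (-1.62 ± 0.14), the matricellular protein Nov (-1.64 ± 0.17), the ubiquitin ligase Rnf112 (-1.76 ± 0.16), LOC103690141 (-1.73 ± 0.19) and AABR07015067.2 (-1.57 ± 0.30) were the others of the 15 largest falls. AABR07015067.2 had a log2 fold change of -0.80 without control replicate 1 and -1.02 without PTX replicate 1.

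**Figure D2:**
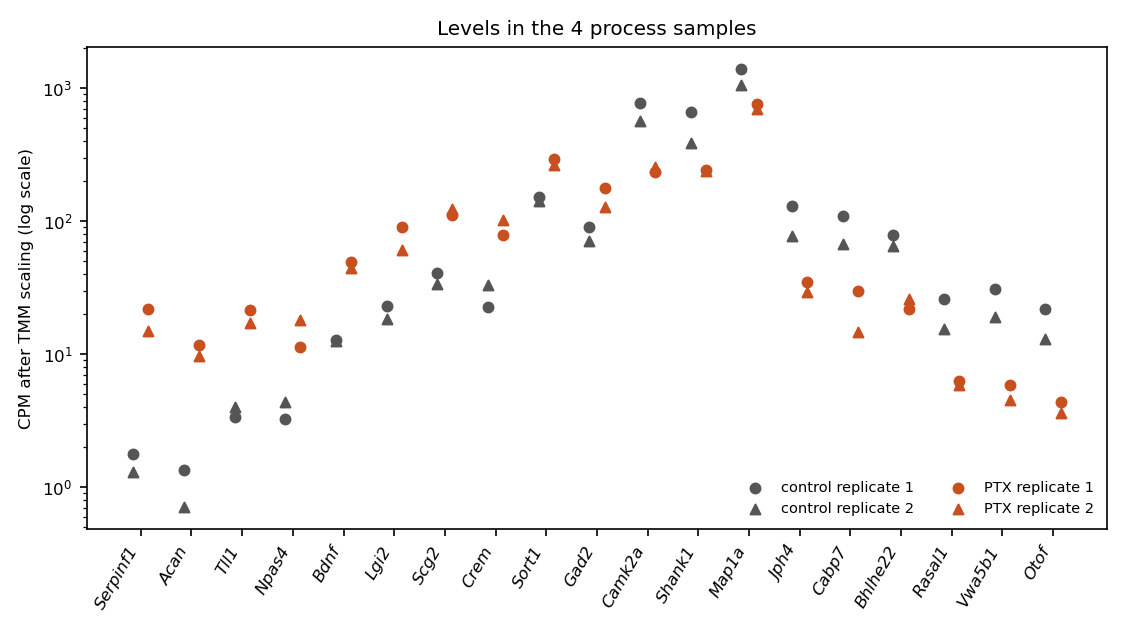
CPM after TMM scaling (log axis) of 19 genes in each of the 4 process samples, control in grey and PTX in orange, with a circle for replicate 1 and a triangle for replicate 2. From Serpinf1 to Gad2 both PTX points lie above both control points, and from Camk2a to Otof both lie below, with control replicate 1 the highest of the 4 samples for all genes of the latter set.

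Transcription factors of the activity response, which synaptic calcium induces, were on the raised side. Of 28 tested members of the list, 11 were raised (39.3%, beside 5.1% of all tested genes) and 0 lowered. The list median was 0.33 beside -0.01 over all tested genes. The raised members were Fos, Fosb, Junb, Egr2, Egr4, Nr4a1, Nr4a2, Npas4, Maff, Crem and Nfil3, with log2 fold changes from 0.76 to 2.16. Fosb, a partner of Jun proteins in AP-1, had 1.12 and 0.822 CPM in control and 3.67 and 3.52 CPM in PTX (log2 1.91 ± 0.38), and Egr2, a zinc finger factor, rested on few reads (3 and 3 in control, 9 and 20 in PTX). All 11 had PTX samples above control samples without overlap. The same held for 703 of all 730 raised genes, and 42.4% of all tested genes did not overlap in either direction. Without the replicate block 8 of the 28 passed. In the blocked fit 8 rose without control replicate 1, 9 without control replicate 2, 10 without PTX replicate 1 and 9 without PTX replicate 2.

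Of 35 effector genes that such factors control, 19 rose (54.3%, beside 5.1% of all tested genes). In the other direction 1 fell (Mfap3l, log2 -0.62 ± 0.10), and the list median was 0.60. Without the block 11 rose and 0 fell. In the blocked fit 14 rose without control replicate 1, 16 without control replicate 2, 13 without PTX replicate 1 and 15 without PTX replicate 2. Per1, a clock gene that CREB induces, had 25.3 and 26.4 CPM in control and 76.7 and 69.6 CPM in PTX (log2 1.5 ± 0.10). Nptx2, a secreted pentraxin that clusters AMPA receptors, had 15.2 and 14.6 CPM in control and 42.1 and 39.9 CPM in PTX (log2 1.46 ± 0.12). Plk2, the kinase that triggers the removal of spine scaffolds in downscaling, had 17.4 and 13.4 CPM in control and 39 and 27.6 CPM in PTX (log2 1.11 ± 0.12), while the kinase gene Pim1 was low throughout with 0.892 and 0.587 CPM in control and 2.3 and 2.21 CPM in PTX (log2 1.61 ± 0.44). The PTX samples stood above the control samples in each case. Arc, whose RNA is known to travel into dendrites and whose values were looked up afterwards, had 44.2 and 37.1 CPM in control and 45 and 63.1 CPM in PTX, a rise of 0.40 ± 0.13. Arc had a log2 fold change of 0.70 without control replicate 1 and 0.11 without control replicate 2 and 0.20 without PTX replicate 2.

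MAP kinases are held in check by genes that their own signal induces. Of 18 such phosphatase, Sprouty and Spred genes, 8 were raised, 0 lowered and 10 did not pass (median 0.30, 5 raised without the block, between 4 without PTX replicate 1 and 6 when 1 sample was left out). The share raised was 44.4%, beside 5.1% of all tested genes. Dusp1, a nuclear phosphatase of MAP kinases, had 2.23 and 1.06 CPM in control and 6.89 and 7.34 CPM in PTX (log2 2.12 ± 0.29). Dusp4 rose by 1.17 ± 0.10 on the log2 scale, and Spry4 had 23.1 and 21.3 CPM in control and 40.0 and 46.4 CPM in PTX (log2 0.97 ± 0.12). Dusp2 was low, with 1 and 1.17 CPM in control and 2.18 and 3.22 CPM in PTX (log2 1.32 ± 0.40).

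Several of these genes are textbook targets of CREB, which binds the cAMP response element (CRE). The promoter sequences are printed because they show that element in genes raised in processes. RefSeq promoters of assembly GRCr8, from 250 bases before to 50 bases after the annotated start, matched by symbol and with a single listed start, were at hand for 9278 of the 14309 tested genes. The full CRE (TGACGTCA, its own reverse complement) was found in 3.28% of them, in 6.28% of the 494 raised genes with a promoter, in 11.3% of the 115 raised more than 2-fold and in 2.74% of the 547 lowered genes. The CRE core TGACG, searched on both strands and contained in every full CRE, was found in 32.4% of all, 36.2% of raised and 26% of lowered genes. For the AP-1 letters TGANTCA, searched on both strands, the shares were 4.37% of all, 6.28% of raised and 5.48% of lowered genes, and 11.3% of those raised more than 2-fold, the same as for the CRE. These matches are descriptions of letters in a window and were not tested. Of 54 raised genes named by rule that had such a promoter, 8 held a full CRE. The 4 with the largest fold changes are given here by the 250 bases before the start, with the CRE in capitals, and Has1, with 0 reads in both controls and thus no fold change, was passed over. Dusp1 lies at chr10:17184603-17184852, plus strand, with the CRE starting 124 bases before the start. Vgf lies at chr12:25277021-25277270, minus strand, with the CRE 90 bases before. Maff lies at chr7:112792537-112792786, plus strand (51 bases before), and Cartpt, a neuropeptide gene, at chr2:32991236-32991485, minus strand (142 bases before).
Dusp1: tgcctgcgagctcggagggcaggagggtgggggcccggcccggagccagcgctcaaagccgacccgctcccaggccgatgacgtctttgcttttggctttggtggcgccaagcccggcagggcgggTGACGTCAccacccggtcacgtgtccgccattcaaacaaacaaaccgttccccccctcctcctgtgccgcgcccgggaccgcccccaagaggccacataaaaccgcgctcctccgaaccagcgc
Vgf: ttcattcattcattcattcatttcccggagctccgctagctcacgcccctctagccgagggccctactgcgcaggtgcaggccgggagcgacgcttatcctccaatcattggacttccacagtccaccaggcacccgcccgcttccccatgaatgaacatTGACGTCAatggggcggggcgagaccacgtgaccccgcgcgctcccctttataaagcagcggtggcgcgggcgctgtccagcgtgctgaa
Maff: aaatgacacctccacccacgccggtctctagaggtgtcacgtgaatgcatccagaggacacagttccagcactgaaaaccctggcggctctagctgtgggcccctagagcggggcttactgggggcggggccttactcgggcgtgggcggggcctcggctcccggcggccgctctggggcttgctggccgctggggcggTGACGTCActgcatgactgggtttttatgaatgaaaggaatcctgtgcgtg
Cartpt: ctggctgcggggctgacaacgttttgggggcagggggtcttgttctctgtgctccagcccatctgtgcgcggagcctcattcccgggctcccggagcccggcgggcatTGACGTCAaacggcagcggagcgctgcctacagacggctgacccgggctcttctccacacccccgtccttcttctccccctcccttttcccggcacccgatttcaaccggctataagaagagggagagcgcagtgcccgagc

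Neuropeptide precursors and the proteins of dense-core vesicles came next. Of 19 tested precursor genes, 3 were raised (15.8%, beside 5.1% of all tested genes) and 0 lowered, with a median of 0.65. All 3 calls and the median rested on members with few reads, since 0 members were raised and the median was 0.05 among genes with at least 10 reads in every sample, and 1 was raised without control replicate 1. Penk, the enkephalin precursor, had 2.01 and 1.06 CPM in control and 7.23 and 5.53 CPM in PTX (log2 2.04 ± 0.33). Pdyn, the dynorphin precursor, had 0.558 and 0.47 CPM in control and 2.99 and 1.61 CPM in PTX (log2 2.16 ± 0.47), and Cartpt 1.12 and 0.587 CPM in control and 4.02 and 1.51 CPM in PTX (log2 1.71 ± 0.41). All 3 were low in processes, and only Penk passed without the block (adjusted p = 0.012). The granin and peptide processing list was split, with 5 of 15 raised (33.3%) and 2 lowered (13.3%, beside 6.09% of all tested genes). Without the block 0 were lowered and 4 raised. Besides Vgf and Scg2, the amidating enzyme Pam rose to 189.6 and 161 CPM from 89 and 85.3 CPM (log2 1.01 ± 0.10), the granule membrane protein Ptprn by 0.62 ± 0.10 and the granule priming factor Cadps2 by 0.54 ± 0.14. Chga, the classical chromogranin, had 23.1 and 18.8 CPM in control and 15.6 and 12.3 CPM in PTX (log2 -0.59 ± 0.13), and Scg5 fell by 0.50 on the log2 scale. Cadps2 had a log2 fold change of 0.35 without control replicate 1, Cartpt of 1.09 without control replicate 1, and Scg5 of -0.31 without PTX replicate 2.

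Of 10 sorting receptors, Trk receptors and neurotrophins, 4 rose (40%, beside 5.1% of all tested genes), Bdnf included, and 0 fell. Sort1 encodes sortilin, a VPS10 receptor that routes BDNF into the regulated pathway, and had 152 and 143 CPM in control and 295 and 267 CPM in PTX (log2 0.93 ± 0.09, adjusted p = 1.89e-07). Sorcs3, another VPS10 receptor, had 8.36 and 8.1 CPM in control and 18.8 and 14 CPM in PTX (log2 0.99 ± 0.16). Ntrk2, which encodes TrkB, the receptor of BDNF, had 538 and 509 CPM in control and 709.6 and 697 CPM in PTX (log2 0.43 ± 0.10). In all of them the lower PTX sample exceeded the higher control sample.

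Postsynaptic scaffolds hold receptors and signalling enzymes in place below the excitatory synapse. Of 44 tested members, 22 fell (50%, beside 6.09% of all tested genes) and 3 rose, with a list median of -0.32. Shank1, a master scaffold of the postsynaptic density whose mRNA is dendritic, had 661 and 388 CPM in control and 244 and 239 CPM in PTX (log2 -1.09 ± 0.13). Its paralogues Shank2 (143 and 112 CPM in control and 60.3 and 61.8 CPM in PTX, log2 -1.06 ± 0.10) and Shank3 (438 and 299 CPM in control and 262 and 249 CPM in PTX, log2 -0.51 ± 0.11) fell as well. Control replicate 1 was highest for all 3 Shank genes, and both PTX samples were below control replicate 2. Iqsec2, an exchange factor for Arf6, had 97 and 66.1 CPM in control and 37.1 and 31.2 CPM in PTX (log2 -1.25 ± 0.12), Srcin1, an inhibitor of Src, 165 and 112 CPM in control and 61.4 and 62.1 CPM in PTX (log2 -1.15 ± 0.12), and Baiap2, an actin regulator of spines, 20.4 and 19.5 CPM in control and 9.53 and 9.55 CPM in PTX (log2 -1.07 ± 0.15). Dlgap1 (-0.49 ± 0.09), Dlg3 (-0.51 ± 0.11), Homer2 (-0.61 ± 0.10), Homer3 (-0.83 ± 0.15) and Mpp2 (-0.70 ± 0.13) were also lowered. The raised members were Iqsec3, an Arf exchange factor of inhibitory synapses (329 and 268 CPM in control and 545 and 510.1 CPM in PTX, log2 0.83 ± 0.10), Homer1 (log2 0.54 ± 0.10), whose short activity-induced form and long forms are not separated in gene counts, and Sipa1l2 (0.53 ± 0.10). Of the 22 lowered scaffolds, 20 were higher in control replicate 1 than in control replicate 2. Without the block 11 fell and 2 rose. In the blocked fit 10 fell without control replicate 1, 22 without control replicate 2, 13 without PTX replicate 1 and 16 without PTX replicate 2. Shank1 had a log2 fold change of -0.68 without control replicate 1, and Shank3 of -0.24 without control replicate 1.

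Glutamate receptors carry the excitatory current and its slower modulation. Of 18 ionotropic subunits, 3 were lowered (16.7%, beside 6.09% of all tested genes) and 0 raised. Their count was 1 without either control sample and 0 without either PTX sample. Gria1, the AMPA receptor subunit GluA1, had 99.1 and 106 CPM in control and 84.2 and 74.1 CPM in PTX (log2 -0.38 ± 0.10), and the NMDA receptor subunit Grin2b 63 and 57.7 CPM in control and 50.8 and 41.8 CPM in PTX (log2 -0.39 ± 0.10). Grin3b had only 5 and 15 reads in control and 2 and 3 in PTX. None of the 3 passed without the block or with scaling by library size alone (adjusted p between 0.13 and 0.284 without the block). Of 24 auxiliary proteins, 6 fell (25%) and 1 rose (4.17%, beside 5.1% of all tested genes). Without the block 4 were lowered and 0 raised. Cacng2, which encodes stargazin and anchors AMPA receptors, had 16.8 and 12.8 CPM in control and 6.77 and 6.94 CPM in PTX (log2 -1.10 ± 0.18), and Shisa7 18.6 and 14.4 CPM in control and 9.76 and 9.85 CPM in PTX (log2 -0.75 ± 0.16), while Cacng3, a relative of stargazin, had 3.12 and 3.17 CPM in control and 5.86 and 5.83 CPM in PTX (log2 0.91 ± 0.26). Among 8 metabotropic receptors 3 fell (37.5%). Among them were Grm3 (212 and 185 CPM in control and 112 and 116 CPM in PTX, log2 -0.80 ± 0.10) and Grm5 (184 and 256 CPM in control and 131 and 167 CPM in PTX, log2 -0.56 ± 0.10). Grm3 is also made by astrocytes. Gria1 had a log2 fold change of -0.25 without control replicate 2.

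Calcium that enters through these receptors acts through calmodulin. Of 28 calcium and calmodulin kinases, phosphatases and their partners, 14 fell (50%) and 3 rose, with a median of -0.36 (4 lowered and 0 raised without the block, between 7 without control replicate 1 and 14 lowered when 1 sample was left out), and all 14 were higher in control replicate 1 than in control replicate 2. Camk2a, the kinase of long-term potentiation and the best known dendritic mRNA, had 772 and 572 CPM in control and 234 and 258 CPM in PTX, a log2 fold change of -1.44 ± 0.11 (adjusted p = 9.39e-09). Camkk2, which activates other kinases of this family, had 17.4 and 13.2 CPM in control and 6.32 and 7.54 CPM in PTX (log2 -1.14 ± 0.18). Both PTX samples were below both controls for either gene. Rcan2, an inhibitor of calcineurin, moved the other way with 20.5 and 16.8 CPM in control and 44.6 and 30.4 CPM in PTX (log2 1.0 ± 0.12), as did Rcan1 (0.41 ± 0.11) and Camk1g (0.89 ± 0.23).

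Proteins that bind or move calcium fell and rose in part. Of 21 buffers and sensors, 8 fell (38.1%, beside 6.09% of all tested genes) and 3 rose (14.3%, beside 5.1%). Without the block 4 were lowered and 1 raised. Cabp7 had the largest fall. Hpca, which encodes hippocalcin, had 41.9 and 39.9 CPM in control and 18.7 and 18.4 CPM in PTX (log2 -1.15 ± 0.13), Necab1 13.7 and 14.9 CPM in control and 6.09 and 7.84 CPM in PTX (log2 -1.04 ± 0.16) and the potassium channel partner Kcnip2 75.3 and 60.2 CPM in control and 31.8 and 37.8 CPM in PTX (log2 -0.96 ± 0.12). Cabp1, the dendritic caldendrin, rose instead, with 10.7 and 9.39 CPM in control and 20.1 and 16.5 CPM in PTX (log2 0.86 ± 0.16), as did Vsnl1 (0.43 ± 0.10) and S100a10 (0.45 ± 0.12). Of 13 pumps and exchangers, 5 fell (38.5%) and 2 rose (15.4%), with 4 lowered and 0 raised without the block. The plasma membrane pumps Atp2b4 (75.9 and 65.8 CPM in control and 39.6 and 31.9 CPM in PTX, log2 -0.99 ± 0.11) and Atp2b3 (log2 -0.72 ± 0.14) and the exchangers Slc8a2 (-0.95 ± 0.11), Slc24a2 (-0.78 ± 0.12) and Slc24a4 (-0.64 ± 0.21) were lowered, whereas the pump Atp2b2 had 123 and 106 CPM in control and 165 and 151 CPM in PTX (log2 0.47 ± 0.10) and the reticular pump Atp2a2 rose by 0.30 ± 0.09.

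Ion channels set excitability and the shape of dendritic signals. Of 69 potassium channel genes 11 fell and 4 rose (7 lowered and 2 raised without the block). Of 30 sodium and calcium channel genes 10 fell and 2 rose (7 lowered and 0 raised without the block). The shares lowered were 15.9% and 33.3%, beside 6.09% of all tested genes. The shares raised, 5.8% and 6.67%, were near the 5.1% of all tested genes. The silent subunits Kcng1 (6.69 and 7.16 CPM in control and 1.84 and 3.02 CPM in PTX, log2 -1.52 ± 0.27) and Kcng2 (25.5 and 15.3 CPM in control and 8.61 and 7.94 CPM in PTX, log2 -1.29 ± 0.19) were the potassium channel genes with the largest falls. The raised ones were the leak channel Kcnk3 (3.12 and 2.23 CPM in control and 7.46 and 6.64 CPM in PTX, log2 1.39 ± 0.25), the sodium-activated channel Kcnt1 (14.9 and 11.3 CPM in control and 28.7 and 23.3 CPM in PTX, log2 0.99 ± 0.13), Kcna1 (0.65 ± 0.19) and Kcnj4 (0.45 ± 0.13). Cacnb3, an accessory subunit of calcium channels, had 84.4 and 73.6 CPM in control and 43.2 and 34.8 CPM in PTX (log2 -1.02 ± 0.11). All 3 genes of low-threshold T-type calcium channels fell, with Cacna1h at -0.78 ± 0.12, Cacna1i at -0.68 ± 0.11 and Cacna1g, looked up afterwards, at -0.65 ± 0.14. The sodium channel beta subunits Scn2b (-0.56 ± 0.15) and Scn3b (-0.74 ± 0.13) fell, while the calcium channel subunit Cacnb4 (0.49 ± 0.12) rose. Cacna1g had a log2 fold change of -0.43 without control replicate 1, and Kcna1 of 0.33 without control replicate 1 and 1.07 without control replicate 2.

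Of 15 inhibitory synapse genes 4 rose (26.7%, beside 5.1% of all tested genes) and 3 fell (20%, beside 6.09%), Iqsec3 among the raised. Without the block 1 was lowered and 2 raised. The GABA-synthesising enzymes Gad2 (90.5 and 71.2 CPM in control and 178 and 129 CPM in PTX, log2 0.92 ± 0.09) and Gad1 (44.9 and 36.3 CPM in control and 63.7 and 56.5 CPM in PTX, log2 0.57 ± 0.11) rose. Among 13 subunits of the GABA-A receptor, the target of PTX, 15.4% were lowered and 0 raised, with a median of 0.03. The lowered ones were Gabrb1 (56.6 and 50.5 CPM in control and 33.6 and 36.7 CPM in PTX, log2 -0.60 ± 0.11) and Gabra5 (102 and 77.6 CPM in control and 69.7 and 57.8 CPM in PTX, log2 -0.49 ± 0.10). Without the block Gad1 (adjusted p = 0.14) and Gabra5 (adjusted p = 0.0985) did not pass. The chloride exporter Slc12a5, known as KCC2, had 46.2 and 33 CPM in control and 24.8 and 18.3 CPM in PTX (log2 -0.88 ± 0.13), and the importer Slc12a2, known as NKCC1, rose by 0.34 ± 0.10. The glial GABA transporter Slc6a11 (39.6 and 38 CPM in control and 21.5 and 28.7 CPM in PTX) fell by 0.64 on the log2 scale. Slc12a2 had a log2 fold change of 0.20 without control replicate 1.

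Presynaptic genes passed in both directions. Of 42 members of the vesicle release machinery 11 fell (26.2%) and 6 rose (14.3%), with 4 lowered and 2 raised without the block. Of 30 endocytosis genes 7 fell (23.3%) and 1 rose (3.33%), with 3 lowered and 0 raised without the block. Over all tested genes 6.09% fell and 5.1% rose. Both vesicular glutamate transporters were raised, Slc17a7 with 170.5 and 130.5 CPM in control and 261 and 240.2 CPM in PTX (log2 0.74 ± 0.10, adjusted p = 1.42e-05) and Slc17a6 with 2.9 and 3.64 CPM in control and 8.27 and 5.83 CPM in PTX (log2 1.10 ± 0.27). The Rab3 effector Rph3a had 46.5 and 39 CPM in control and 101 and 84.6 CPM in PTX (log2 1.12 ± 0.10). In each of the 3 the PTX samples stood clear of the controls. Lowered were, besides Otof, the calcium sensor Doc2b (6.02 and 4.23 CPM in control and 2.76 and 1.81 CPM in PTX, log2 -1.17 ± 0.34) and Syn1, which encodes synapsin (125 and 86.7 CPM in control and 63.4 and 61.2 CPM in PTX, log2 -0.75 ± 0.11). In endocytosis the clathrin uncoating factor auxilin, gene Dnajc6, had 224 and 195 CPM in control and 128 and 107 CPM in PTX (log2 -0.83 ± 0.09), the fission GTPase Dnm1 124 and 83.7 CPM in control and 62.8 and 59.4 CPM in PTX (log2 -0.75 ± 0.11), Amph 17.1 and 12.7 CPM in control and 10.6 and 10.1 CPM in PTX (log2 -0.53 ± 0.16) and Fcho1 13.5 and 11.9 CPM in control and 7.35 and 6.84 CPM in PTX (log2 -0.84 ± 0.17). Cltc, the clathrin heavy chain, was the only raised member of that list (0.46 ± 0.10). Adhesion molecules mostly did not pass. Of 47 tested, 4 fell (8.51%, beside 6.09% of all tested genes) and 3 rose (6.38%, beside 5.1%). These shares are near those over all tested genes, and without the block 3 fell and 0 rose. Contactin 2, gene Cntn2, had 7.81 and 6.11 CPM in control and 2.07 and 2.51 CPM in PTX (log2 -1.60 ± 0.26), Flrt3 11.2 and 14.6 CPM in control and 6.2 and 7.04 CPM in PTX (log2 -0.95 ± 0.18) and Cadm3 60.6 and 50.9 CPM in control and 37.9 and 31.7 CPM in PTX (log2 -0.68 ± 0.10), and Nrxn2 fell by 0.44 on the log2 scale, while Cntnap1 (0.45 ± 0.11), Adgrl2 (0.44 ± 0.12) and Ptprf (0.33 ± 0.10) rose. Amph had a log2 fold change of -0.35 without control replicate 1, Nrxn2 of -0.25 without control replicate 1, Ptprf of 0.16 without PTX replicate 1, and Slc17a6 of 0.72 without control replicate 1.

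**Figure D3:**
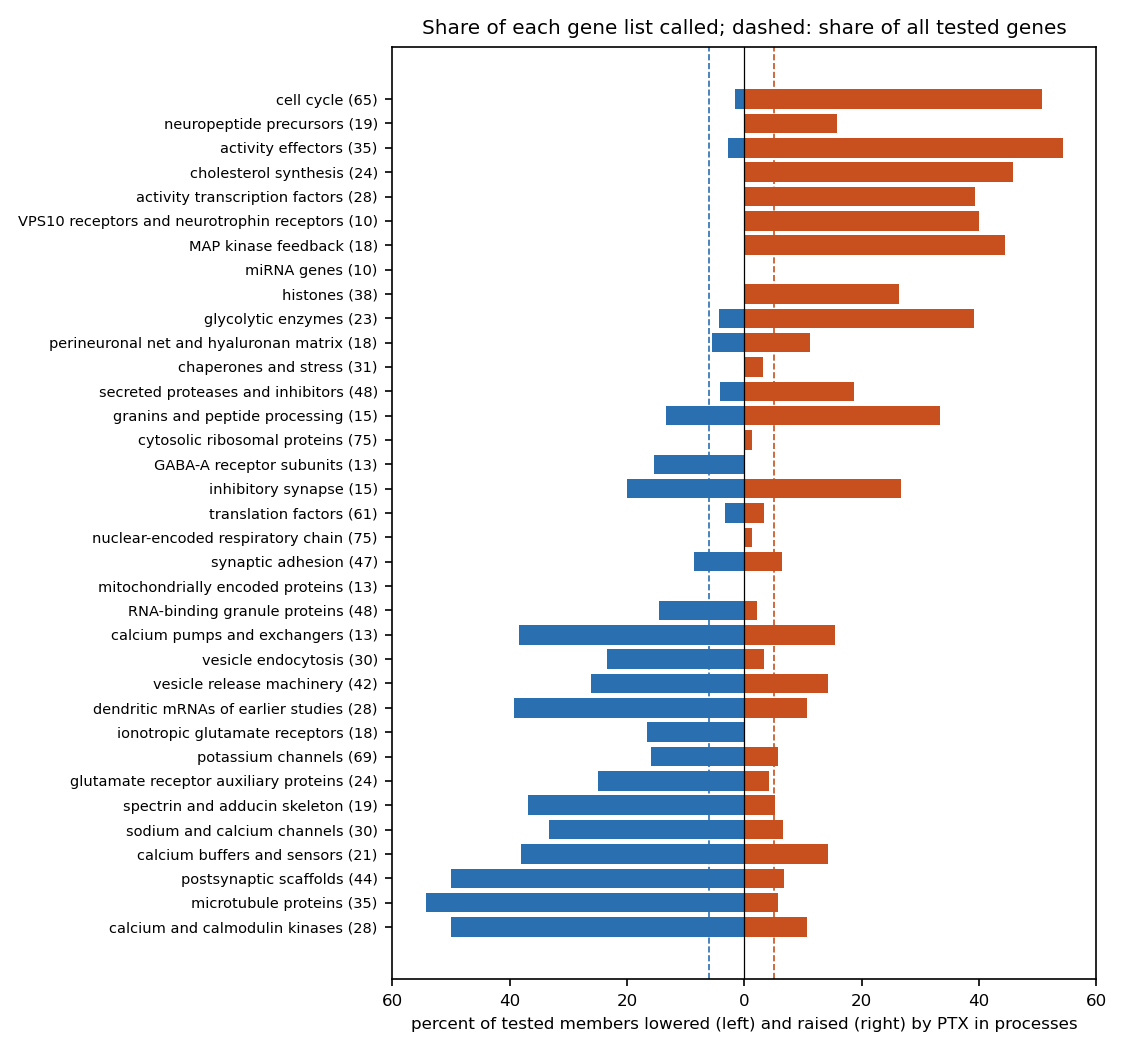
Percent of the tested members of the pathway and family gene lists (all but the metabotropic receptors) lowered (blue, left) or raised (orange, right) by PTX in processes. Lists are sorted by median log2 fold change, with the number tested in brackets. Dashed lines are at the shares over all tested genes (6.09% lowered, 5.1% raised). Activity, cell cycle and cholesterol lists lie on the raised side and scaffold, kinase and microtubule lists on the lowered side, while ribosomal, respiratory and mitochondrially encoded genes show almost no calls.

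Microtubules carry cargo, including mRNA, along dendrites and axons. Of 35 microtubule proteins, 19 fell (54.3%, beside 6.09% of all tested genes) and 2 rose (5.71%, beside 5.1%). The log2 fold changes of the lowered genes ran from -0.93 to -0.29, and the list median was -0.34. Map1a had 1399.6 and 1055 CPM in control and 762 and 697 CPM in PTX (log2 -0.74 ± 0.11), Map1b 1351 and 996 CPM in control and 851 and 684 CPM in PTX (log2 -0.61 ± 0.10), Map1s 33 and 28.8 CPM in control and 18.4 and 21.9 CPM in PTX (log2 -0.62 ± 0.13) and the collapsin response protein Dpysl5 25.2 and 20.1 CPM in control and 12.6 and 11.2 CPM in PTX (log2 -0.93 ± 0.14). Map4 (0.31 ± 0.09) and Dclk1 (0.47 ± 0.11) rose. Without the block 4 fell and 0 rose. In the blocked fit 6 fell without control replicate 1, 17 without control replicate 2, 8 without PTX replicate 1 and 5 without PTX replicate 2. Of the 19 lowered genes, 17 were higher in control replicate 1 than in control replicate 2. In the spectrin and adducin skeleton below the membrane 7 of 19 fell (36.8%) and 1 rose (5.26%), with 3 lowered and 0 raised without the block. The adducin gene Add2 had 96 and 80.9 CPM in control and 54.4 and 46 CPM in PTX (log2 -0.82 ± 0.10), the beta spectrin gene Sptb 175 and 132 CPM in control and 102 and 74.7 CPM in PTX (log2 -0.80 ± 0.10) and Dmtn 22.1 and 14.9 CPM in control and 11.1 and 10.8 CPM in PTX (log2 -0.75 ± 0.15), while the tropomodulin gene Tmod1 had 5.35 and 4.35 CPM in control and 9.07 and 8.14 CPM in PTX (log2 0.84 ± 0.20). Dclk1 had a log2 fold change of 0.28 without PTX replicate 2, and Map1s of -0.40 without control replicate 1.

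In the list of perineuronal net and hyaluronan genes, which build the matrix around synapses, 15 of 18 did not pass, and Acan, given above, was the only proteoglycan that did. Hapln1, a link protein, had 17.1 and 20.9 CPM in control and 11.6 and 13 CPM in PTX (log2 -0.63 ± 0.14). Has1 passed with 0 and 0 reads in control and 5 and 3 in PTX, too few for a fold change. Among secreted proteases and their inhibitors, 9 of 48 rose (18.8%, beside 5.1% of all tested genes) and 2 fell (4.17%, beside 6.09%). Without the block 0 were lowered and 3 raised. Htra4 had 0.892 and 1.29 CPM in control and 7.12 and 10.1 CPM in PTX (log2 2.97 ± 0.31), next to Serpinf1. Mmp9 had 1 and 0 reads in control and 6 and 10 in PTX, and Serpinb2 0 and 1 against 6 and 6. Adamts3 (-0.97 ± 0.26) and Timp2 (-0.35 ± 0.10) fell.

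Genes of cell division, which neurons largely switch off and glia can use, were on the raised side. Of 65 tested members of the list, 33 were raised (50.8%, beside 5.1% of all tested genes) and 1 was lowered, 61 had a log2 fold change above 0, and the median was 0.71. Pbk had 2.45 and 2.11 CPM in control and 8.73 and 8.55 CPM in PTX, and Cdk1, the kinase that drives mitosis, 2.68 and 2.82 CPM in control and 9.88 and 7.54 CPM in PTX (log2 1.65 ± 0.26). The mitotic cyclin gene Ccnb1 had 2.56 and 3.76 CPM in control and 7.35 and 7.84 CPM in PTX (log2 1.27 ± 0.24), and Cdc20, an activator of the anaphase-promoting complex with a known role in dendrites, 2.01 and 2.47 CPM in control and 4.94 and 5.83 CPM in PTX (log2 1.26 ± 0.27). The control and PTX samples did not overlap for any raised member except Aurkb, beside 703 of all 730 raised genes. Control replicate 2 was the higher control sample for most of the raised members. The raised members included the proliferation marker Mki67 (log2 0.63 ± 0.10), Top2a (1.02 ± 0.11) and Pcna (0.71 ± 0.11). Gins2, a replication factor, was the lowered member (-0.66 ± 0.19). Without the block 14 rose and 0 fell. In the blocked fit 17 rose without control replicate 1, 25 without control replicate 2, 19 without PTX replicate 1 and 25 without PTX replicate 2. The list summed to 581 and 700.2 CPM in control and 994 and 1080 CPM in PTX. The same list had a median of 0.42 in somata, with 27 raised, and 0 of its members differed between compartments in the test of the difference. Cyclin D2, gene Ccnd2, is not on the list and was picked after its values were seen as the raised gene with the highest CPM, 655 and 797 CPM in control and 1246 and 1528 CPM in PTX (log2 0.93 ± 0.10). Histone genes were raised in 10 of 38 cases (26.3%, beside 5.1% of all tested genes) and lowered in 0. The log2 values of the raised ones ran from 0.415 to 0.867, for instance Hist1h2bk (6.69 and 9.28 CPM in control and 15.2 and 13.5 CPM in PTX, log2 0.85 ± 0.19) and Hist1h1a (4.01 and 3.41 CPM in control and 6.55 and 6.74 CPM in PTX, log2 0.83 ± 0.24). None of the histone genes passed without the block, and only 1 passed without PTX replicate 1 and 1 without control replicate 2. Reads of histone copies in a cluster may be shared between near-identical genes. Gins2 had a log2 fold change of -0.42 without control replicate 1, and Hist1h2bk of 0.53 without PTX replicate 1.

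Among metabolic genes, cholesterol synthesis, which supplies membranes, had 11 of 24 genes raised and 0 lowered (median 0.33, 2 raised without the block and between 4 without control replicate 1 and 8 when 1 sample was left out). The share raised was 45.8%, beside 5.1% of all tested genes. Mvd, of the mevalonate pathway, rose by 0.86 ± 0.15 on the log2 scale, and Hsd17b7 had 4.79 and 3.88 CPM in control and 8.5 and 7.34 CPM in PTX (log2 0.88 ± 0.22). The values of Lss, which closes the sterol rings, were 36.2 and 33.8 CPM in control and 51.8 and 53.2 CPM in PTX (log2 0.58 ± 0.10). Glycolysis had 9 of 23 raised and 1 lowered (median 0.29, 6 raised without the block and between 7 without control replicate 2 and 9 when 1 sample was left out). For glycolysis the shares were 39.1% raised and 4.35% lowered. The glucose transporter Slc2a1 had 28.5 and 23.1 CPM in control and 60.9 and 41 CPM in PTX (log2 0.97 ± 0.14), Pgk1 211 and 162 CPM in control and 343 and 268 CPM in PTX (log2 0.71 ± 0.09) and Ldha, which makes lactate, 184 and 138 CPM in control and 293 and 229 CPM in PTX (log2 0.70 ± 0.10), while the hexokinase Hk1 fell by 0.37 on the log2 scale. Respiratory chain genes of the nucleus had 1 call among 75, the complex I subunit Ndufa8 (43.2 and 41.8 CPM in control and 73.6 and 72.6 CPM in PTX, log2 0.78 ± 0.10), and the 13 proteins encoded by mitochondrial DNA had 0 (median -0.06). Leaving out 1 sample turned the direction of the latter list, with 5 lowered and a median of -0.33 without control replicate 2, and 1 raised and a median of 0.14 without control replicate 1.

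The machinery of local translation gave few calls. Of 75 cytosolic ribosomal proteins 1 passed, the Rpl22 paralogue Rpl22l1 (23.2 and 26 CPM in control and 30.4 and 36.9 CPM in PTX, log2 0.46 ± 0.12). Of 61 translation factors 2 rose (3.28%, beside 5.1% of all tested genes) and 2 fell (3.28%, beside 6.09%). Eef1a2, the elongation factor form of mature neurons, had 56 and 46.7 CPM in control and 27.8 and 26.2 CPM in PTX (log2 -0.93 ± 0.11), and Eef2k, the kinase that slows elongation, 31.1 and 28.8 CPM in control and 18.9 and 20.1 CPM in PTX (log2 -0.62 ± 0.12), while Eif2d (0.57 ± 0.14) and Pabpc4 (0.39 ± 0.10) rose. Of 48 RNA-binding and granule proteins 7 fell (14.6%) and 1 rose (2.08%), with 3 lowered and 1 raised without the block. The splicing and stability factors Celf4 (59.5 and 46.3 CPM in control and 29.1 and 18.9 CPM in PTX, log2 -1.15 ± 0.14), Celf5 (-0.87 ± 0.12) and Nova2 (-0.89 ± 0.22) were lowered, and Ago2, the effector of microRNAs, rose with 51.1 and 55.9 CPM in control and 86.8 and 86.8 CPM in PTX (log2 0.70 ± 0.10). Of 31 chaperone and stress genes only Hspa5, which encodes BiP, passed (0.32 ± 0.09). Of 28 mRNAs known as dendritic from earlier work 11 fell and 3 rose (5 lowered and 2 raised without the block), the latter being Bdnf, Arc, which kept its call in 2 of 4 fits with 1 sample left out, and Cabp1. Nova2 had a log2 fold change of -0.28 without control replicate 1 and -1.38 without control replicate 2, and Pabpc4 of 0.23 without PTX replicate 1.

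Non-coding genes followed with small numbers. Of 251 long intergenic RNAs 5 rose and 6 fell. The 10 tested genes with a microRNA name had 0 calls, whereas 8 of 46 genes that the annotation types as miRNA, all known only by contig names, were lowered. Of these 8, 7 were highest in control replicate 1, 4 did not overlap between conditions and 2 passed without the block. AABR07015056.1, for instance, had 5789 and 1701 reads in control and 1084 and 2207 in PTX, so that its groups overlapped.

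Markers of the cell types in the culture moved as well, and their part in the results above was not tested. Of 13 markers of glutamatergic neurons 8 fell and 2 rose, with a median of -0.67 (4 lowered and 1 raised without the block, between 5 without control replicate 1 and 7 lowered when 1 sample was left out). The shares were 61.5% lowered and 15.4% raised, beside 6.09% and 5.1% of all tested genes. The 8 were Camk2a, Nrgn, Neurod1, Neurod2, Neurod6, Tbr1, Prox1 and Bcl11b, and the 2 were the transporters Slc17a7 and Slc17a6. Neurod6 had 21.2 and 16.2 CPM in control and 8.84 and 6.03 CPM in PTX (log2 -1.34 ± 0.16), and Neurod1 4.24 and 3.05 CPM in control and 1.15 and 1.01 CPM in PTX (log2 -1.75 ± 0.34). The list summed to 1066 and 801 CPM in control and 582 and 565 CPM in PTX. Of 14 pan-neuronal markers 6 fell and 0 rose (median -0.37, 1 lowered and 0 raised without the block), for instance Tubb3 (151 and 119.7 CPM in control and 109.7 and 86.1 CPM in PTX, log2 -0.47 ± 0.11), and the sums were 6134 and 5658 against 5136 and 4352 CPM. Of 10 markers of GABAergic neurons, Gad1 and Gad2 rose and 0 fell, with sums of 348 and 305 against 462 and 404 CPM. These 3 sums did not overlap between the conditions. The astrocyte sum did not overlap either (17170 and 15920 CPM in control against 13170 and 15020 CPM in PTX). Single genes did not overlap in 42.4% of all tested cases.

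Glial markers were called at shares near that of all genes, 2 of 14 for astrocytes and 2 of 12 for oligodendrocytes, beside 11.2% of all tested genes. Of 14 astrocyte markers the glutamate transporter Slc1a3 rose (602 and 643 CPM in control and 844 and 805 CPM in PTX, log2 0.41 ± 0.11) and the connexin Gja1 fell (159.7 and 158 CPM in control and 113 and 122 CPM in PTX, log2 -0.44 ± 0.10), and neither passed without the block. Of 12 markers of the oligodendrocyte lineage, Mbp (12.2 and 16.2 CPM in control and 6.32 and 12.1 CPM in PTX) and Myrf (3.46 and 5.17 CPM in control and 1.95 and 2.51 CPM in PTX) fell. Of 8 endothelial and mesenchymal markers, Tagln and Col3a1 rose in the blocked fit, but Tagln had 27.2 and 7.28 CPM in control and 42 and 12.8 CPM in PTX and Col3a1 26.2 and 13.9 CPM in control and 49.5 and 16.9 CPM in PTX, so that replicate 1 was above replicate 2 in both conditions and the groups overlapped. Slc1a3 had a log2 fold change of 0.24 without PTX replicate 1.

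**Figure D4:**
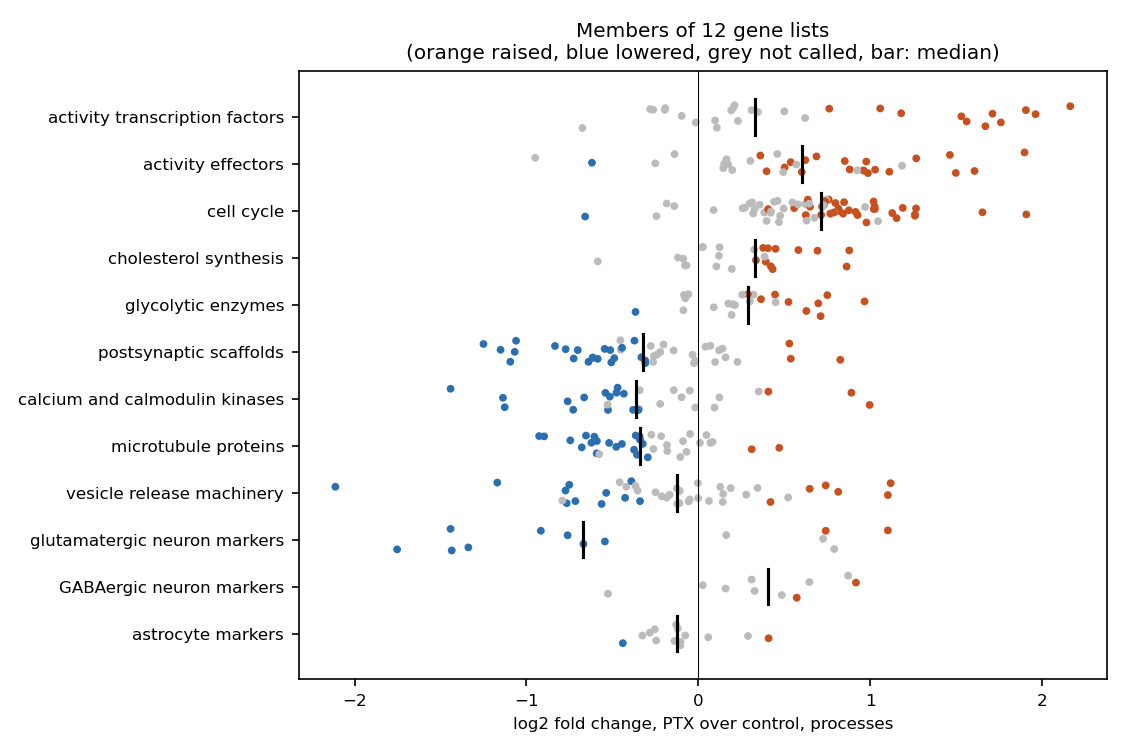
Log2 fold change of PTX over control in processes for every tested member of 12 gene lists (1 point per gene, orange raised, blue lowered, grey not passed, black bar at the list median, vertical scatter without meaning). Cell cycle members lie almost wholly above 0 and glutamatergic markers mostly below, with Slc17a6 and Slc17a7 as the exceptions that passed on the other side.

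The study names 25 listed genes as changed in processes, and gives some of them, such as Plk2, as changed in both compartments. Of the 25, 22 fell and 3 rose here, and 16 were also called in somata. The study chose them on these samples, so the count is not independent evidence. The raised ones were Sort1, Plk2 and Cdc20. Besides genes given above, Crtc1, a coactivator of CREB, had 23.8 and 17.9 CPM in control and 10.1 and 13.5 CPM in PTX (log2 -0.82 ± 0.17). Without the block 15 fell and 2 rose. Crtc1 had a log2 fold change of -0.48 without control replicate 1.

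Whether processes responded differently from somata was tested directly, as the log2 fold change in processes minus the one in somata. Of the 1601 genes called in processes, 882 were also called among the 2002 genes called in somata (14% of those tested), 879 in the same direction. The other 719 (300 raised, 419 lowered) passed in processes alone, but 646 of them had the same sign in somata and only 8 passed the test of the difference. Over all genes 15 passed that test (0.105% of those tested), 11 with a higher and 4 with a lower response in processes. Without the replicate block 0 passed in edgeR's quasi-likelihood test (smallest adjusted p = 0.115, 572 genes at an unadjusted p under 0.05, beside 1242 with the block), and DESeq2 with the block called 19.

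Sort1, Slc17a7 and Atp2b2, 3 of the 15, passed in both compartments in opposite directions. Sort1 fell in somata, from 177 and 163 CPM to 139.5 and 132 CPM (log2 -0.32 ± 0.09), against its rise of 0.93 ± 0.09 in processes, a difference of 1.25 ± 0.13 (adjusted p = 1.24e-05). Slc17a7 had 263 and 256 CPM in control somata and 214 and 198 CPM in PTX somata (log2 -0.34 ± 0.09), a difference of 1.08 ± 0.14 (adjusted p = 0.000451). For the calcium pump Atp2b2 the somata held 162 and 153 CPM in control and 126 and 129.7 CPM in PTX, and the difference was 0.77 ± 0.13 (adjusted p = 0.0116). In all 3 genes both PTX samples lay above both controls in processes and below them in somata.

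Other genes rose in processes with no call in somata. Slc36a1, a lysosomal amino acid transporter, had 24.1 and 16.4 CPM in control and 47.8 and 39.9 CPM in PTX in processes (log2 1.11 ± 0.14) and a log2 value of -0.31 ± 0.13 in somata (difference 1.42 ± 0.19). Trio, an exchange factor for small GTPases, had 136 and 136 CPM in control and 247 and 241 CPM in PTX (log2 0.84 ± 0.09) beside 0.03 ± 0.09 in somata. The response of Ndufa8 was 0.78 ± 0.10 in processes and 0.06 ± 0.09 in somata. Syt13, an atypical synaptotagmin, had 0.73 ± 0.11 beside -0.23 ± 0.10, the glypican Gpc1 0.46 ± 0.10 beside -0.18 ± 0.09, and AABR07054639.1 0.72 ± 0.10 beside -0.17 ± 0.10. Rph3a rose in both, by 1.12 ± 0.10 in processes and 0.41 ± 0.10 in somata. Heg1, a membrane receptor, did not pass in processes (0.15 ± 0.10) and fell in somata (-0.55 ± 0.10).

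The 4 genes with a lower response in processes were of different kinds. Dnajc6 fell in processes, and in somata it had 120.2 and 109 CPM in control and 114 and 95.1 CPM in PTX (log2 -0.14 ± 0.09), a difference of -0.69 ± 0.13 (adjusted p = 0.0225). The sulfotransferase Chst2 had 122 and 104 CPM in control and 71.8 and 86.7 CPM in PTX in processes (log2 -0.51 ± 0.11) beside 0.30 ± 0.11 in somata. The amino acid transporters Slc7a8 and Slc7a14 rose in somata by 1.17 ± 0.09 and 0.81 ± 0.12 and did not pass in processes, where the values were 0.31 ± 0.12 and -0.26 ± 0.18. When process samples were left out, the number of genes that passed was 2 without PTX replicate 1 (Sort1 and Slc17a7), 8 without PTX replicate 2, 7 without control replicate 1 and 46 without control replicate 2.

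**Figure D5:**
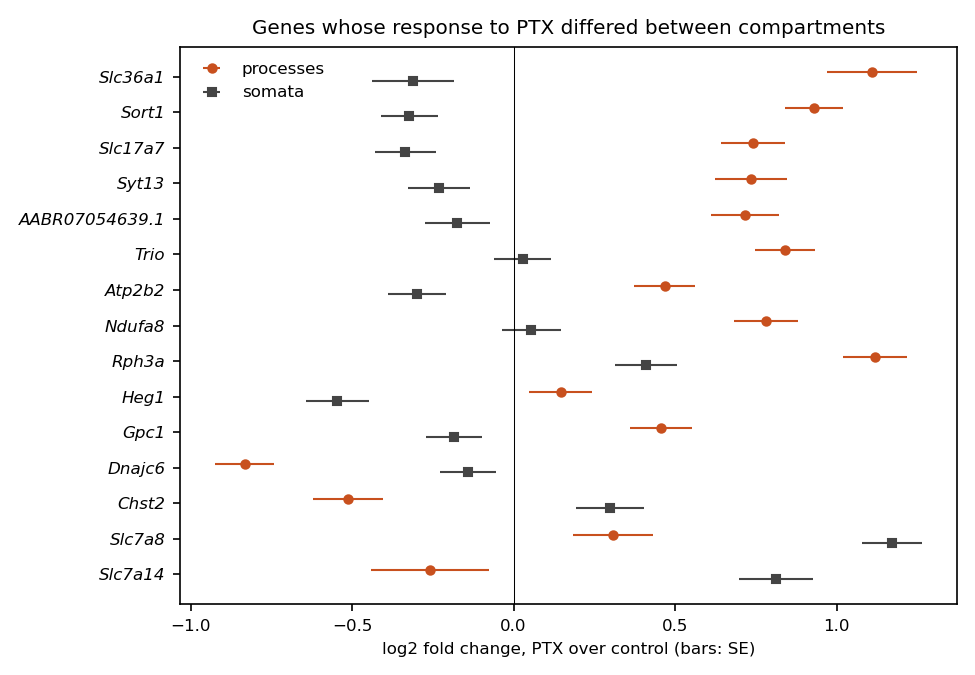
Log2 fold change of PTX over control (points, with bars of 1 standard error) in processes (orange) and in somata (grey) for the 15 genes whose response differed between compartments, sorted by the difference. Sort1, Slc17a7 and Atp2b2 passed in both compartments on opposite sides of 0, and the 4 lowest genes responded less, or more negatively, in processes.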

How the data were processed

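Total RNA of 8 samples (2 replicates each of control and PTX, in somata and processes) was depleted of rRNA and sequenced from stranded libraries. The deposited table holds raw read counts per gene symbol, made by the authors with featureCounts. The submitters' processing notes name STAR and the build Rnor_6.0, whereas the study's methods name Subread, so the aligner is uncertain. The strand setting of the counting was not given in the sources used here, so antisense and overlapping genes cannot be told apart. A second deposited table holds the authors' comparisons (log2 fold changes, log2 CPM, test statistics, p-values and false discovery rates). Its values were not used, and only its gene types were read.

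A gene was kept when 2 or more of the 8 samples exceeded 20 reads (14309 of 28909 genes). They were fitted with edgeR 4.0.16 in R 4.3.3 (TMM factors, quasi-likelihood test, Benjamini-Hochberg adjustment, threshold 0.05), with a term for each condition and the replicate number as a block. The fit was tested on simulated data that held the same replicate term, so that test cannot show whether the block is right. The replicate numbers come from the sample titles. Deviations of same-numbered samples from their group means correlated across genes in every pair of conditions. Pearson's r was lowest between control and PTX processes (0.274), the pair compared here, and highest between control and PTX somata (0.54). Errors after ± are standard errors of log2 fold changes, and n was 2 per group.

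Genes were named by rule. The rule took the 15 largest rises and falls with at least 5 CPM and no overlap, and up to 4 called genes of each list. It also took the listed genes that the study names as changed in processes, and genes that differed between compartments. Other genes were named after their values were seen, and a few that the rule takes are not reported here. The gene lists and the samples to compare were chosen with earlier results of these data known. Alternatives were other designs, scalings, filters and tests, DESeq2 1.42.0 and leaving out each process sample. Promoter sequences are from RefSeq (GRCr8) and carry no coordinates of the build that was counted.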

Additional observations from a re-analysis of the deposited data

Results flagged for a closer look

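The PTX response of 15 genes differed between processes and somata by the test of the difference itself, given here as the log2 response in processes minus that in somata with its standard error and the adjusted p of edgeR's quasi-likelihood test with the replicate block. Higher in processes were Slc36a1 with 1.42 ± 0.19 (adjusted p = 0.000572), Sort1 with 1.25 ± 0.13 (adjusted p = 1.24e-05), Slc17a7 with 1.08 ± 0.14 (adjusted p = 0.000451) and Syt13 with 0.96 ± 0.15 (adjusted p = 0.00368). Differences below 1 were found for AABR07054639.1 with 0.89 ± 0.14 (adjusted p = 0.00683), Trio with 0.81 ± 0.13 (adjusted p = 0.00498), Atp2b2 with 0.77 ± 0.13 (adjusted p = 0.0116) and Ndufa8 with 0.73 ± 0.14 (adjusted p = 0.0277). Rph3a had 0.71 ± 0.14 (adjusted p = 0.0386), Heg1 0.69 ± 0.14 (adjusted p = 0.0495) and Gpc1 0.64 ± 0.13 (adjusted p = 0.0495). Lower in processes were Slc7a14 with -1.07 ± 0.22 (adjusted p = 0.0495), Slc7a8 with -0.86 ± 0.16 (adjusted p = 0.0224), Chst2 with -0.81 ± 0.15 (adjusted p = 0.0256) and Dnajc6 with -0.69 ± 0.13 (adjusted p = 0.0225).

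None of the 15 passed without the replicate block in edgeR's quasi-likelihood test, where 572 genes had an unadjusted p under 0.05 and DESeq2 with the block called 19 genes. Sort1 and Slc17a7 passed whichever single process sample was left out. With groups of 2 samples, no test for a single sample far from the others was made.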

How the results depend on the processing

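Without the replicate block the test called 535 genes in processes (235 raised, 300 lowered, 131 members of the gene lists) and 0 genes in the difference between compartments, against 1601, 730, 871, 313 and 15 with it. In a fit to the 4 process samples alone without the block, 299 genes passed (159 raised, 140 lowered, 86 list members). All genes called in either fit were among the 1601. The genes that passed the test of the difference numbered 87 with a separate block for each compartment, 89 without a filter on reads and 91 with the likelihood ratio test. DESeq2 with the block called 1052 genes, 537 of them lowered. At an adjusted p under 0.01, 891 genes passed (409 raised, 482 lowered), and 342 (170 raised, 172 lowered) were both under 0.05 and changed more than 2-fold.

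With each process sample left out in turn and the block kept, 669 to 1422 genes were called, 306 to 565 raised and 362 to 857 lowered, with 165 to 274 list members and 2 to 46 genes in the test of the difference. The lone sample of a group is then assumed to vary like the other groups. The lowest total was without PTX replicate 1, and without control replicate 1, 3 of the genes called from all samples had the opposite sign. Scaling by library size alone gave 759 raised and 607 lowered genes (55.6% raised, against 45.6%), with a median log2 fold change of 0.04 over all genes. Of 354 named genes, 195 lost their call without the block, 38 under library size scaling, 62 in DESeq2 and 66 to 162 when 1 sample was left out, and 0 changed direction under any of these. Upper quartile scaling, the fit without the mitochondrial genome, the stricter filter and the blocked fit to the 4 process samples moved the counts of all genes called by less than 1.5 times, but with the stricter filter 0 neuropeptide precursors were raised. The cause of these shifts was not tested. Counts of a few reads per sample limit what can be said of weakly expressed genes.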
